A study of Mus musculus with 18 samples.

Results

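The step between day 5 and day 6 of differentiation was examined in embryoid bodies of the mouse stem cell line D3, on the 4 day 6 arrays and the 4 day 5 arrays of a series of 18. The arrays were taken by their titles, which give the day, the GFP fraction and a batch, and each day 6 array was paired with the day 5 array of the same fraction and batch. The cells came from selected transgenic clones with an Nkx2-5 enhancer and the hsp68 minimal promoter in front of GFP, and how many clones were used is not stated in the sources used here. The fractions therefore reflect the activity of that enhancer fragment and not of the whole Nkx2-5 gene. The study set out to follow cardiac differentiation of these cells, and it also measured days 7 and 8 and selected cardiomyocytes.

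The day 6 groups were GFP-positive cells (2 arrays, batches 1 and 2) and GFP-negative cells (2 arrays, batches 1 and 2), and the day 5 groups were the same fractions with 2 arrays each. In all of them leukemia inhibitory factor had been withdrawn at the start, embryoid bodies had been made in hanging drops and then kept in suspension with ascorbic acid, and the cells had been sorted for GFP after dissociation. Values are MAS5 signals, the brightness of a gene's probe set in arbitrary units, and differences are day 6 minus day 5 of log2(signal + 6.8). Whether the arrays of a batch represent separate cultures is not given in the labels, and the p-values speak for the spread among these arrays alone, which may be technical.

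At this stage of culture, embryoid bodies pass through a state like the primitive streak, in which cells leave pluripotency under Nodal, WNT and BMP signals and become mesoderm and endoderm. Mesoderm then gives rise to blood, vessels and heart muscle. The first red cells of the mouse are primitive erythroid cells of the yolk sac, which use the embryonic globins, and heart muscle appears in about the same window.

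The arrays were alike in scale. Median signals of the 8 arrays lay between 18.2 and 23.3, and 3′ to 5′ ratios of Gapdh between 1.13 and 1.57. Of 18193 genes with a probe set of their own, 11977 reached a signal of 22.5 on at least 2 of the 8 arrays and were tested. These are bulk measurements, in which fewer cells of a type and less RNA per cell cannot be told apart.

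The step differed between the batches. Across the tested genes, the differences of the fractions within batch 2 correlated with r = 0.63 and those within batch 1 with r = 0.41, while differences from different batches correlated with r between 0.08 and 0.26. These r are descriptions, since genes are not independent replicates. The day 5 array of batch 1 was most like the day 6 array of batch 2 in both fractions, with r = 0.97 in GFP-positive and 0.98 in GFP-negative cells, against 0.92 and 0.93 with the day 5 array of batch 2. The day 6 arrays of batch 1 were most like the day 7 arrays of batch 2, with r = 0.98 in both fractions. The labels give no start times, and the part of timing in these likenesses was not tested.

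Over both batches and fractions, limma called 0 of 11977 genes (0%) at an adjusted p of 0.05, and 1563 (13.1%) had an unadjusted p under 0.05. The lowest adjusted p was 0.302. Without the GFP-positive day 5 array of batch 1 the same fit called 158 genes, 120 higher and 38 lower. Fitted within a batch, with the fractions as the pairs, the test called 49 genes higher (0.409%) and 10 lower (0.0835%) in batch 1, and 110 higher (0.918%) and 26 lower (0.217%) in batch 2. Of these, 13 were called in both batches, 22.0% of the batch 1 calls and 9.56% of the batch 2 calls, and 10 of them ran the same way. The difference between the batches itself passed for 78 genes (0.651%). Below, "rose" and "fell" refer to calls within a named batch. The within-batch fits took in the sorted arrays of the later days of that batch too. Their adjusted p from limma rests on how alike the fractions of the batch changed over all these days, not over this step alone. It does not rest on separate cultures. With single arrays left out in turn, 0 of the 59 batch 1 calls and 2 of the 136 batch 2 calls passed in all 4 fits. Without a trend of the variance on the signal, the batch 1 fit called 0 genes and the batch 2 fit 60.

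**Figure D1:**
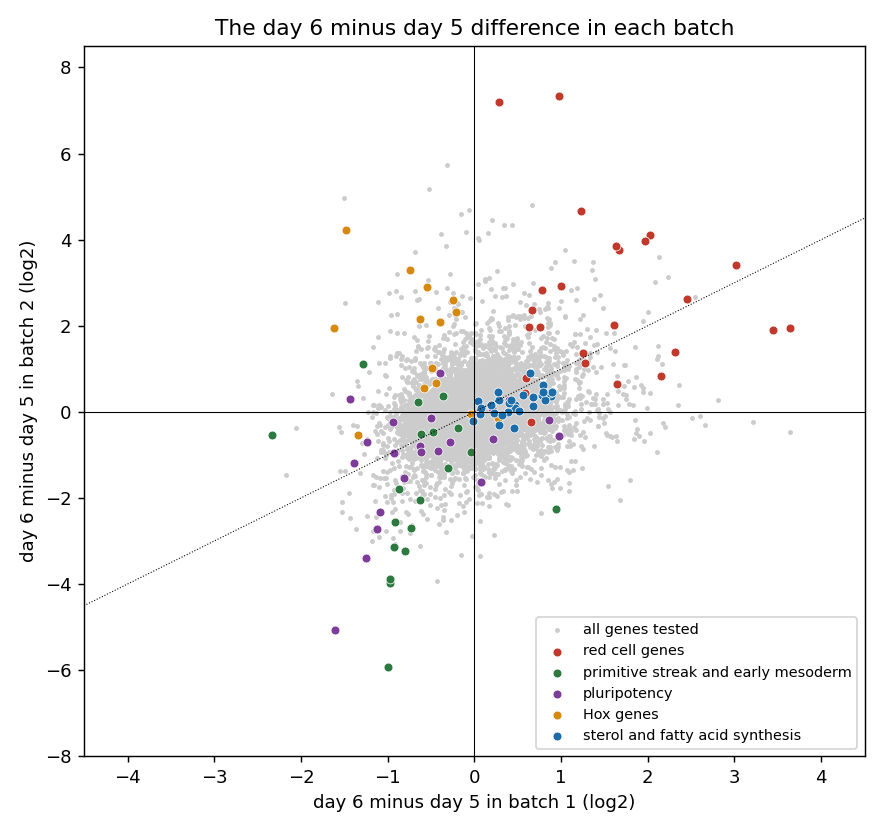
Day 6 minus day 5 difference of each tested gene (log2), in batch 1 on the horizontal axis and in batch 2 on the vertical axis, each the mean of both GFP fractions. The dotted line marks equal differences. Of the red cell genes 24 of 25 lie to the upper right, of the primitive streak genes 15 of 19 to the lower left and of the Hox genes 11 of 14 to the upper left.

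Red cell genes were among those with large differences. The list of 31 red cell genes was put together after single members had been seen among the largest differences, so its counts and medians describe those values only. It had 25 tested members, and 23 of them were higher on day 6 in 4 of 4 pairs, against 13.0% of all genes. Its median difference was 1.85, against -0.01 over all genes, and was 1.28 in batch 1 and 2.02 in batch 2. Within batch 1, 10 of them rose, and within batch 2, 9, against 0.409% and 0.918% of all genes. The step from day 7 to day 8 had a median of -0.17 for the same genes.

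Promoters of 4 members are printed to show the sequence before the start of genes with large differences and of one of their regulators: those of the embryonic globins Hbb-y and Hba-x, of Kel, and of Klf1. Each is the 250 bases before the start of the gene, 5′ to 3′ on the gene's strand, from RefSeq on build GRCm38.p6, and capitals mark GATAAG, a motif of GATA factors, and CCACCC, a motif that Klf1 binds, or the reverse complement of either. The motifs share no bases here.
Hbb-y, chr7:103853208-103853457, minus strand: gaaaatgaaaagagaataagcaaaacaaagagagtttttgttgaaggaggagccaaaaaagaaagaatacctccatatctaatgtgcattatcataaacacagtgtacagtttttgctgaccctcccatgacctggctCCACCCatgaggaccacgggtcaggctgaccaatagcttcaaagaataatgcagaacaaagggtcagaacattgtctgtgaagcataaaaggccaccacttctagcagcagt
Hba-x, chr11:32276350-32276599, plus strand: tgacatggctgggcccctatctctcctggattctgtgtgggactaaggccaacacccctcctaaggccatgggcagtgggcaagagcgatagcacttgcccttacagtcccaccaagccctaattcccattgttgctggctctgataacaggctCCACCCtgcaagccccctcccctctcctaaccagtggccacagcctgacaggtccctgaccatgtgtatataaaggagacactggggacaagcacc
Kel, chr6:41704326-41704575, minus strand: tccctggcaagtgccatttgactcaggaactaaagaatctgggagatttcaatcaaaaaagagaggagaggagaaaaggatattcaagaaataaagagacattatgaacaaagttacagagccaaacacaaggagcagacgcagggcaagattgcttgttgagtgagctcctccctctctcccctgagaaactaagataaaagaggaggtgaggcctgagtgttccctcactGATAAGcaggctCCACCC
Klf1, chr8:84901732-84901981, plus strand: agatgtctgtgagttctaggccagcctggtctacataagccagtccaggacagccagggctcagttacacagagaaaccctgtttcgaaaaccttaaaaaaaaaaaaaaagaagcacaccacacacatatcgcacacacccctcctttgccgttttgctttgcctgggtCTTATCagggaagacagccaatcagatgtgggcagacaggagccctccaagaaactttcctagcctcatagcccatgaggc
The globin promoters and that of Kel each hold 1 CCACCC, and those of Kel and Klf1 each hold 1 GATAAG. Of 17 red cell genes with a promoter in the table, 8 held GATAAG and 10 held CCACCC within these 250 bases on either strand. Among the 9686 tested genes with a promoter there, 4.32% held GATAAG and 33.3% held CCACCC. A match describes the letters and is not evidence of binding.

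The embryonic globins started at different levels in the batches. Hbb-bh1, an embryonic beta-like globin, had signals of 8821 in GFP-positive and 10114 in GFP-negative cells of batch 2 on day 6, against 79.5 and 40.8 on day 5. In batch 1 it had 8248 and 9231 on day 6, against 7022 and 7282 on day 5. The batch 1 signals of the gene were high on both days and close to the highest signal of any probe set on those arrays, which was 9918 and 11812.5 on day 6 and 8776 and 8948 on day 5 (GFP-positive and GFP-negative cells). On day 6 of batch 2 the highest signals were 11292 and 13341. The part of this upper end of the scale in the differences of either batch was not tested. The difference was 7.20 ± 0.25 (log2, SE) in batch 2 (limma adjusted p = 1.3e-04) and 0.29 ± 0.09 in batch 1 (adjusted p = 0.245).

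Hba-x, the embryonic zeta-like globin, had 1118 and 1796 in GFP-positive and GFP-negative cells of batch 2 on day 6, against 1.9 and 2 on day 5. In batch 1 it had 5979 and 6933 on day 6, against 2874 and 3743 on day 5. Hba-x rose in both batches, by 7.35 ± 0.21 in batch 2 and 0.97 ± 0.12 in batch 1 (adjusted p = 7.2e-05 and 0.0257). Since its day 5 signals in batch 2 were below the offset of 6.8, the size of the batch 2 step is set in part by the offset. Hba-x and Hbb-bh1 were the genes whose batch 2 call passed with each of the 4 arrays left out.

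Hbb-y, the epsilon-like globin, rose in both batches from different levels. It had 739.5 and 3094 in GFP-positive and GFP-negative cells of batch 1 on day 6, against 142 and 232 on day 5. In batch 2 it had 75.7 and 73.6 on day 6, against 0.9 and 0.7 on day 5. Hbb-y rose by 3.01 ± 0.29 in batch 1 and 3.42 ± 0.48 in batch 2 (adjusted p = 0.0116 and 0.0321). The day 6 signal was the higher one in 4 of 4 pairs, but the batch 2 signals on day 6 lay below the batch 1 signals on day 5. Its batch 2 signals on day 5 were below the offset of 6.8, so the size of that step is set in part by the offset and the steps of the batches cannot be compared in size. Over both batches the difference of Hbb-y was 3.22, and it was 4.22 with an offset of 1 and 2.28 with an offset of 32. The same limit holds for Hba-x, Kel and other genes with day 5 signals of a few units.

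Some genes of haem synthesis and the red cell membrane were called in both batches and others in batch 1 alone. Alas2, the first enzyme of haem synthesis in red cells, rose by 2.02 ± 0.23 in batch 1 and 4.12 ± 0.59 in batch 2, and Slc25a37, the mitochondrial iron carrier, by 1.61 ± 0.22 and 2.02 ± 0.22. Kel, which carries the Kell blood group, rose by 2.45 ± 0.22 and 2.61 ± 0.33. Its signals were 274 and 523 on day 6 in batch 1, against 62.9 and 64.6 on day 5, and 48.7 and 50 on day 6 in batch 2, against 1.7 and 3.1 on day 5. Membrane genes with calls in batch 1 alone included Slc4a1, the band 3 anion exchanger, which rose by 3.64 ± 0.25 (672 and 1658 on day 6, against 69 and 88.9 on day 5). Add2, a spectrin-binding adducin, rose there by 3.45 ± 0.21, and Rhag, the Rh-associated glycoprotein, by 2.31 ± 0.18. For these 3 genes the batch 2 differences were 1.94, 1.91 and 1.39 and did not pass, and none of the 3 passed the test of the difference between batches.

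Among the regulators of these genes, Klf1, the erythroid Kruppel-like factor, had 1003 and 872 on day 6 in batch 2, against 29.4 and 31.4 on day 5, and rose by 4.66 ± 0.48 (adjusted p = 0.018). In batch 1 it had 1822 and 3105 on day 6, against 1098 and 931 on day 5, a difference of 1.23 ± 0.27 that did not pass (adjusted p = 0.123). Klf1 was among the genes whose step differed between batches (-3.43 ± 0.63, adjusted p = 0.0476). Gata1, the GATA factor of red cells, differed by 2.82 ± 0.48 in batch 2 (adjusted p = 0.0585) and 0.77 ± 0.37 in batch 1. The factors Nfe2 and Gfi1b and Epor, the erythropoietin receptor, were higher in 4 of 4 pairs, with differences over both batches of 1.96, 1.51 and 1.30 that did not pass.

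**Figure D2:**
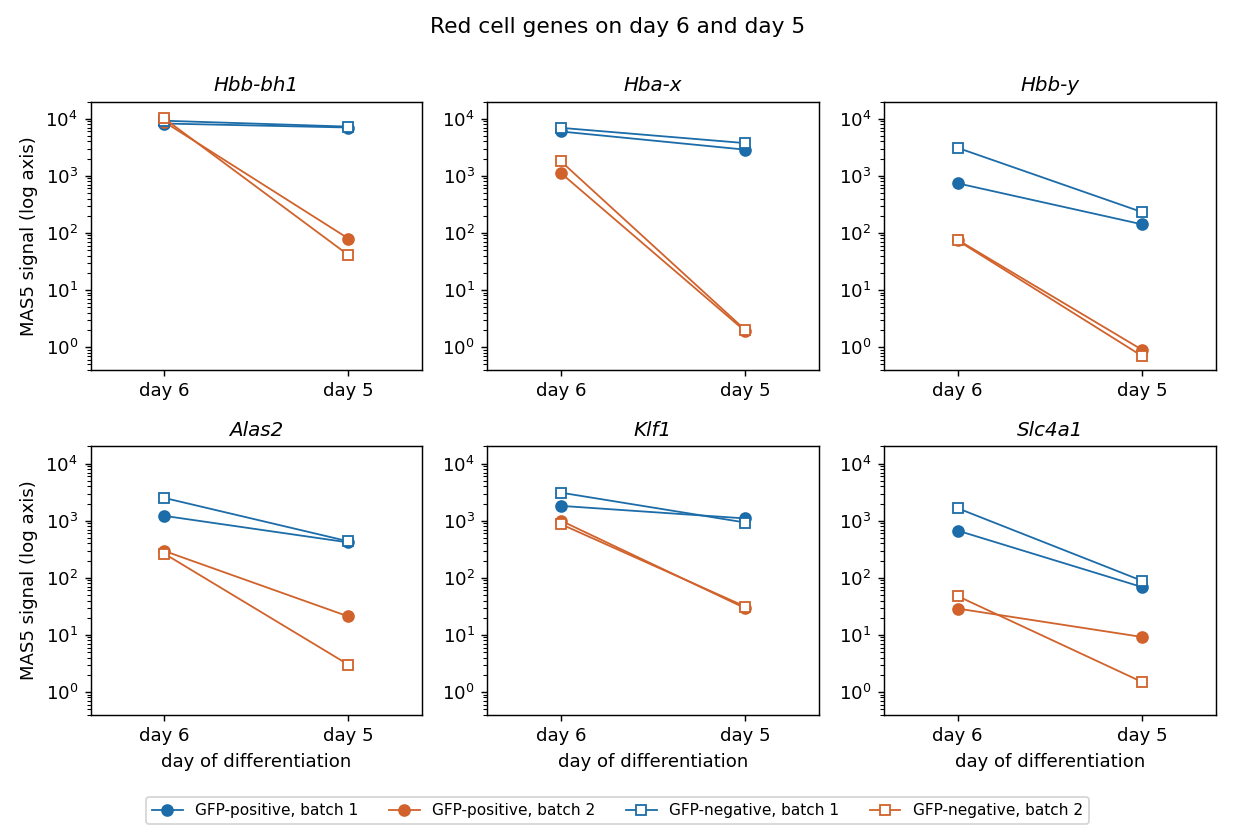
MAS5 signal (log axis) of 6 red cell genes on day 6 and day 5, 1 point per array, with lines joining the arrays of a pair. Batch 1 is blue and batch 2 orange, and filled circles are GFP-positive and open squares GFP-negative cells. Every line slopes down to day 5, and for all but Hbb-bh1 the batch 1 signal of day 5 lies above the batch 2 signal of day 6 of the same fraction.

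The blood list shares members with the red cell list, Hbb-y and Alas2 among them. Among its 18 tested markers, 12 were higher in 4 of 4 pairs, against 13.0% of all genes. The median difference of these markers was 1.41. Their summed signals ran between 17701.1 and 33321 on day 6 and between 1049.7 and 18399.5 on day 5, and the lowest values were the day 5 arrays of batch 2. Itga2b, an integrin of early blood progenitors and platelets, rose within batch 2 by 2.85 ± 0.35, and Csf2rb, a shared cytokine receptor chain on the red cell list, rose in both batches (1.64 ± 0.23 and 3.85 ± 0.24). Runx1 and Tal1, which specify blood, were higher in 4 of 4 pairs, with differences of 1.20 ± 0.40 and 0.87 ± 0.32 that did not pass. The leukocyte genes Ptprc and Csf1r differed by 2.66 and 1.99 in batch 1 and by -0.30 and 0.09 in batch 2, and none of these 4 values passed.

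Of 23 tested endothelial genes, 12 were higher in 4 of 4 pairs and 2 lower, against 13.0% and 14.0% of all genes. The median of the list was 0.92. Tek, the angiopoietin receptor, had 572 and 293 in GFP-positive and GFP-negative cells of batch 2 on day 6, against 85 and 24.4 on day 5. In batch 1 the values were 880 and 329 on day 6, against 705 and 219 on day 5. Tek rose within batch 2 by 2.96 ± 0.29 (adjusted p = 0.0177) and differed by 0.45 ± 0.17 in batch 1. Erg, an ETS factor of endothelium, rose within batch 2 by 3.08 ± 0.37. Etv2, the ETS factor that starts the blood and vessel programme, ran the other way: within batch 2 it fell by 1.29 on the log2 scale, with 900.5 and 423 on day 6, against 2420 and 959.8 on day 5. Etv2 was lower in 4 of 4 pairs, and so was Kdr, the VEGF receptor of early mesoderm (-0.37 ± 0.33, not passed). The endothelial marker sums were 3723 to 9514.5 on day 6 and 3182 to 7994 on day 5.

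Primitive streak and early mesoderm genes had a median below 0. Of 19 tested members, 11 were lower in 4 of 4 pairs, against 14.0% of all genes, and the median was -1.33, with -0.74 in batch 1 and -1.79 in batch 2. Of these, 4 fell within batch 2, namely Mixl1, Eomes, Mesp1 and Evx1, against 0.217% of all genes. Within batch 1, 0 fell, against 0.0835% of all genes. Mixl1, a homeobox gene of the streak, had 4.3 and 36.5 in GFP-positive and GFP-negative cells of batch 2 on day 6, against 1679.9 and 1048.5 on day 5. The batch 1 signals were 8.3 and 12.7 on day 6, against 12.2 and 54.7 on day 5. Mixl1 was therefore high on the day 5 arrays of batch 2 alone, and there it fell by 5.93 on the log2 scale (SE 0.80, adjusted p = 0.0282).

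Mesp1, a bHLH factor of cardiac and other early mesoderm, had 82.1 and 186 on day 6 in batch 2, against 1527 and 2463 on day 5. Batch 1 had 24.3 and 37.2 on day 6, against 37.3 and 112 on day 5. Within batch 2 it fell by 3.89 on the log2 scale (SE 0.38, adjusted p = 0.0177). Eomes, a T-box factor of the streak, fell by 3.98 there, and the homeobox gene Evx1 fell by 3.22. The batch 1 differences of Mesp1, Eomes and Evx1 were -0.97, -0.97 and -0.80, in the same direction and not past the threshold. On later days Mesp1 was low, and its signals in GFP-negative cells of batch 2 were 2463, 186, 47.4 and 30 on days 5, 6, 7 and 8.

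Pluripotency and epiblast genes had medians below 0. Of 22 tested pluripotency genes, 7 were lower in 4 of 4 pairs and 0 higher, against 14.0% and 13.0% of all genes. The median of the list was -0.69. Pou5f1 (Oct4) had 18.2 and 127 in GFP-positive and GFP-negative cells of batch 2 on day 6, against 306 and 1161 on day 5, and there it fell by 3.39 (adjusted p = 0.0181). Batch 1 signals were 10.4 and 48.3 on day 6, against 15.7 and 229.6 on day 5. In each batch and day the GFP-positive signal was below the GFP-negative one. Dppa5a, another gene of pluripotent cells, fell by 2.73 within batch 2. Tdgf1 (Cripto), the Nodal co-receptor, had 40.1 to 199.9 on day 6 and 316 to 4359 on day 5, without overlap. Its difference was -3.33 ± 0.76 and did not pass over both batches (adjusted p = 0.302). Of 11 tested epiblast genes 5 were lower in 4 of 4 pairs, against 14.0% of all genes. The epiblast median was -0.71. Nanog differed by -1.71 ± 0.43, and the epiblast gene Fgf5 by -2.04 ± 0.51, and neither passed.

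Signalling genes of this window also had medians below 0. Of 20 tested WNT pathway genes, 10 were lower in 4 of 4 pairs and 1 higher, against 14.0% and 13.0% of all genes. The WNT median was -0.71. In the fit over both batches and in the within-batch fits 0 of the 20 were called. Lef1 passed in the additive limma fit of the 8 arrays (adjusted p = 0.04608), which counts the fractions of a batch as separate replicates. Without the GFP-positive day 5 array of batch 1, Dkk1 differed by -1.68. The lower genes included the WNT targets Axin2 (-1.17 ± 0.39), Lef1 (-1.43 ± 0.41) and Sp5 (-2.03 ± 0.62) and the antagonist Dkk1, whose signals were 60.5 to 109 on day 6 and 125 to 437 on day 5. Dkk1 differed by -1.38 ± 0.29, and day 6 and day 5 did not overlap for 4 genes of the WNT list, Dkk1, Wnt3, Sfrp2 and Sp5, where 3.25% of all genes lay below day 5 without overlap. Of 20 Nodal and BMP genes, 9 were lower in 4 of 4 pairs, against 14.0% of all genes. Nodal itself differed by -1.23 ± 0.40. Lefty2, a Nodal antagonist and target, fell by 2.79 within batch 2, and Bmp4 fell by 0.93 within batch 1 (744 and 877 on day 6, against 1426 and 1682 on day 5). Bmp4 differed by -0.11 ± 0.47 in batch 2.

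**Figure D3:**
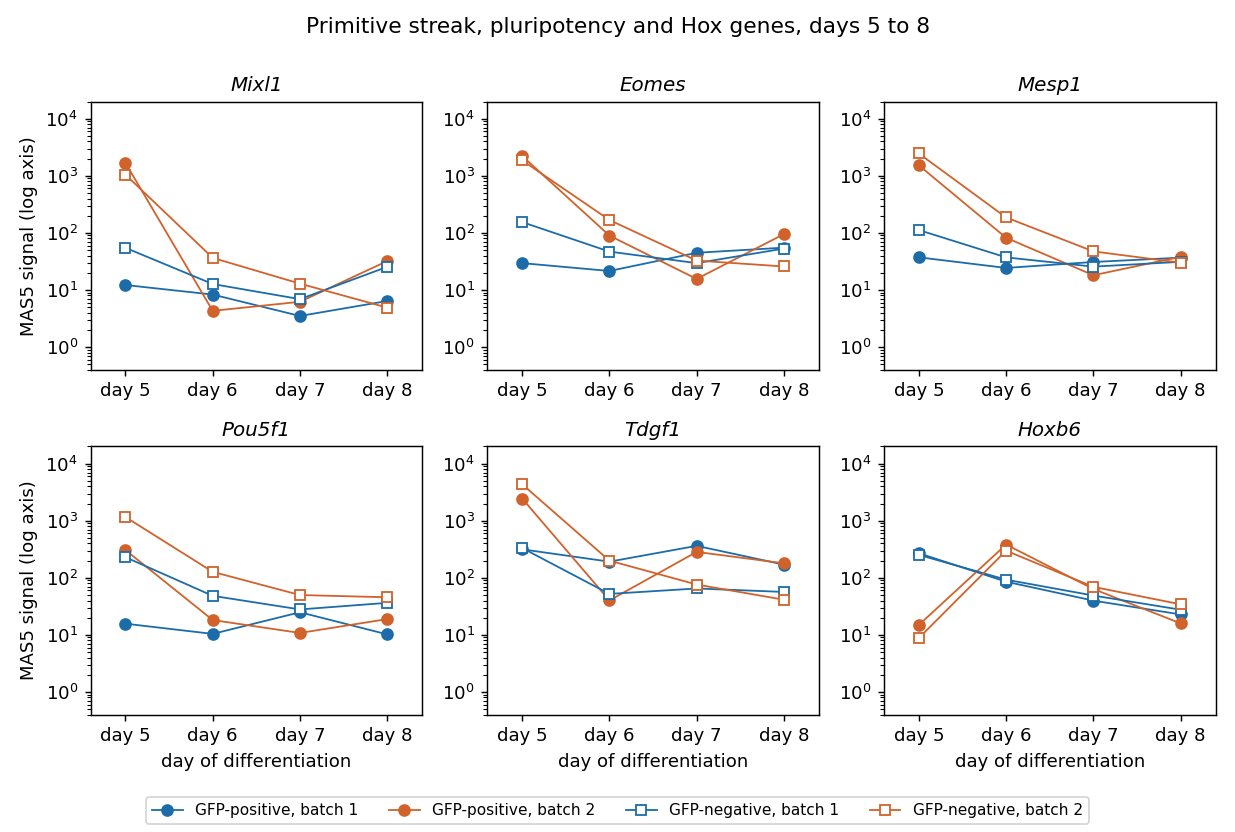
MAS5 signal (log axis) of 3 primitive streak genes, 2 pluripotency genes and Hoxb6 on days 5, 6, 7 and 8, 1 point per array, with lines joining the arrays of one fraction and batch. Batch 1 is blue and batch 2 orange, and filled circles are GFP-positive and open squares GFP-negative cells. Streak genes are high on day 5 of batch 2 alone, and Hoxb6 is highest on day 6 in batch 2 and on day 5 in batch 1.

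Hox genes, which set position along the body axis, had medians of opposite sign in the batches. Of 14 tested, 7 rose within batch 2, 2 fell within batch 1, and 6 differed between batches. The shares over all genes were 0.918%, 0.0835% and 0.651%. The median was 2.02 in batch 2 and -0.52 in batch 1. Hoxb6 had 383 and 299 in GFP-positive and GFP-negative cells of batch 2 on day 6, against 14.9 and 8.8 on day 5. Batch 1 signals were 85.5 and 92.7 on day 6, against 269 and 252 on day 5. Hoxb6 rose by 4.23 ± 0.39 in batch 2 and fell by 1.48 in batch 1 (adjusted p = 0.0177 and 0.0337), and the step differed by -5.71 ± 0.43 (batch 1 minus batch 2, adjusted p = 3.97e-04). Over days 5, 6, 7 and 8, Hoxb6 in GFP-positive cells read 269, 85.5, 39.8 and 22.8 in batch 1 and 14.9, 383, 63.7 and 15.9 in batch 2.

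Hoxd1 likewise rose in batch 2 by 1.95 ± 0.30 and fell in batch 1 by 1.62. Hoxb4, Hoxb5, Hoxa9, Hoxd8 and Hoxd9 rose in batch 2 by 2.10 to 3.30 and differed by -0.21 to -0.74 in batch 1, below the threshold. Of these 5, all but Hoxa9 differed between the batches. Hoxb1, an anterior gene of the cluster, was lower in 4 of 4 pairs (-0.95 ± 0.54, not passed).

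Heart genes had smaller median differences. Nkx2-5, whose enhancer drives the reporter, had 184 and 67.4 in GFP-positive cells of batches 1 and 2 on day 6, against 170 and 60.6 on day 5. In GFP-negative cells it had 107 and 43.5 on day 6, against 95.2 and 57.3 on day 5. The GFP-positive signal was above the GFP-negative one in each batch and day, and the signals of the days overlapped. The mean difference over 4 pairs was 0.02 (exact two-sided permutation p = 1, a test that cannot reach 0.05 with 4 pairs). Of 19 tested cardiac transcription factors, Mef2c was the one called, where 0.918% of all genes rose within batch 2. Mef2c rose there by 2.23 ± 0.29 (191 and 168 on day 6, against 28.1 and 38.4 on day 5). Its batch 1 signals were 877 and 588 on day 6, against 626 and 449 on day 5. Tbx3 and Gata4 were lower in 4 of 4 pairs, by -1.29 ± 0.52 and -0.59 ± 0.33, and did not pass.

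Of 22 tested sarcomere genes, 7 were higher in 4 of 4 pairs and 0 lower, against 13.0% and 14.0% of all genes. The median of the list was 0.45. Of the 22, 2 rose within batch 2, against 0.918% of all genes. Tnnt2, cardiac troponin T, had 328 and 190 in GFP-positive and GFP-negative cells of batch 2 on day 6, against 5.9 and 1.1 on day 5. In batch 1 the signals were 2733 and 799.6 on day 6, against 2482 and 964 on day 5. It rose by 4.68 ± 0.55 in batch 2 and differed by -0.06 ± 0.13 in batch 1, and with day 5 signals below the offset in batch 2 the size of its step there is set in part by the offset. Tnni1, slow skeletal troponin I, which the embryonic heart uses, rose by 4.04 ± 0.43 in batch 2 and differed by 0.04 ± 0.11 in batch 1. Myh6, the alpha myosin heavy chain, had 1078 and 298 on day 6 in batch 1, against 729.5 and 189 on day 5, and 37.3 and 25.9 on day 6 in batch 2, against 19.5 and 25 on day 5. It was higher in 4 of 4 pairs (0.50 on average), which gives the smallest exact permutation p that 4 pairs allow and does not reach 0.05. The atrial light chain Myl7 differed by 0.10 ± 0.17 in batch 1 and -1.66 ± 0.45 in batch 2, and neither passed.

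Matrix genes of mesenchyme had a median of 0.26. Of 21 tested, 8 were higher in 4 of 4 pairs and 4 rose within batch 2, against 13.0% and 0.918% of all genes. Col1a2, a chain of type I collagen, had 488 to 908 on day 6 and 38.4 to 299 on day 5, without overlap, and rose within batch 2 by 3.48 ± 0.19 (adjusted p = 0.0023). In batch 1 it differed by 1.37 ± 0.62. Col3a1 and Postn (periostin) rose within batch 2 by 3.60 ± 0.36 and 3.14 ± 0.42, and differed by 2.13 and 2.23 in batch 1. Hapln1, a hyaluronan link protein, rose within batch 2 by 3.20 ± 0.47 and differed by -0.90 ± 0.15 in batch 1, and these steps differed (-4.09 ± 0.54, adjusted p = 0.0135). Acta2, smooth muscle actin, rose in both batches, by 0.69 ± 0.10 and 2.51 ± 0.25. Of 8 tested smooth muscle genes, however, 3 had a difference above 0 over both batches, and the list median was -0.03. Snai2, a factor of mesenchymal transition, rose within batch 2 by 3.71 ± 0.35 (158 and 225 on day 6, against 8.8 and 7.5 on day 5). In batch 1 Snai2 differed by -0.69 ± 0.31. Of 15 tested epithelial-mesenchymal genes, 6 had a difference above 0 over both batches, and the list median was -0.28. The median over all genes was -0.01.

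Few lineage markers were among the genes with the lowest p over both batches. These included Col1a2 and, on the higher side, Gclm, a subunit of a glutathione synthesis enzyme (1.13 ± 0.22), Ankrd37, a target of hypoxia signalling (1.18 ± 0.24), the brain aldolase Aldoc (0.64 ± 0.13), the lipid desaturase Scd1 (0.71 ± 0.14) and the sterol carrier Stard4 (0.69 ± 0.13). On the lower side they included the circadian receptor Nr1d2 (-0.71 ± 0.13), the amino acid transporter Slc7a6 (-0.60 ± 0.12), the co-chaperone Dnajc12 (-0.71 ± 0.14), Dkk1, the stem cell Ras protein Eras (-1.81 ± 0.38) and the hormone gene Trh (-1.96 ± 0.42). All had a limma adjusted p of 0.302 in that fit, as did lineage markers including Tdgf1, Nanog, Tek, Hbb-y and Alas2. The genes listed here were picked for a low p and one sign in 4 of 4 pairs. In the additive fit of the 8 arrays alone, with the pair as a block, limma called 50 genes higher (0.417%) and 13 lower (0.109%). Gclm, Ankrd37 and Scd1 passed there (adjusted p = 0.04545 each). The fit counts the 4 pairs as separate replicates. The fractions of a batch moved together (r = 0.63 in batch 2 and 0.41 in batch 1), so the p-values of this fit may be too low. Of the genes described above, Hbb-y, Kel, Slc25a37, Add2, Rhag, Col3a1 and Postn passed in it as higher and Lef1 as lower. Gclm had 508 to 817 on day 6 and 234 to 310 on day 5. Slc7a6 had 521 to 587 on day 6 and 675 to 1169 on day 5. Within batch 1, Ankrd37 rose by 1.19 ± 0.18 and Stard4 by 0.90 ± 0.10.

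Among glycolysis and hypoxia genes 13 of 16 had a positive difference in both batches, a share that was not counted over all genes. Of the 16, 10 were higher in 4 of 4 pairs, against 13.0% of all genes. For 3 of the 10, Slc2a1, Pdk1 and Egln3, day 6 lay above day 5 without overlap, against 1.87% of all genes. The median was 0.42. Hk1 and Pfkp, enzymes of early glycolysis, rose within batch 2 by 2.32 ± 0.33 and 1.14 ± 0.17. Ero1a, an oxidase for protein folding that also responds to low oxygen, rose in both batches, by 0.74 ± 0.10 and 1.42 ± 0.21, with 2335 to 3097 on day 6 and 685.5 to 1963 on day 5.

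Sterol and fatty acid synthesis genes formed the other group of small differences. This list of 31 genes was put together after Scd1 and Stard4 had been seen, so its counts describe those values only. Of 28 tested, 17 were higher in 4 of 4 pairs, 0 were lower in 4 of 4, and for 10 day 6 lay above day 5 without overlap, where all genes gave 13.0%, 14.0% and 1.87%. The median difference was 0.31 between days 6 and 5 (-0.01 over all genes) and -0.43 between days 8 and 7 (0.06 over all genes). Mvd, of the mevalonate pathway, had 671 to 838 on day 6 and 381 to 589 on day 5, a difference of 0.63 ± 0.14. Stard4 had 1239 to 1384 on day 6 and 713 to 904 on day 5. The lowest adjusted p of all genes for this step minus the later step, 0.113, belonged to Scd1 (0.71 minus -0.93, a difference of 1.64 ± 0.20), and limma called 0 genes in that comparison, with 1756 at an unadjusted p under 0.05. Lss and Mvd gave 1.37 ± 0.24 and 1.15 ± 0.20 in it.

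**Figure D4:**
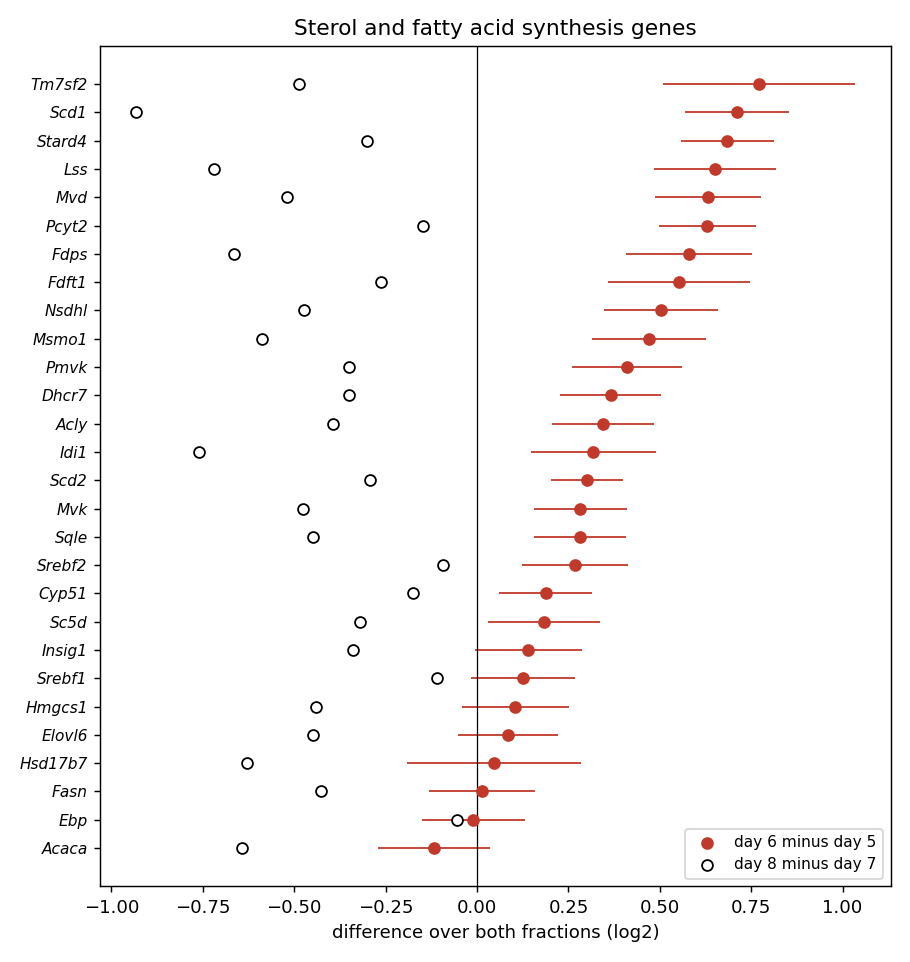
Differences over both fractions (log2) of 28 sterol and fatty acid synthesis genes, with day 6 minus day 5 as filled points (bars are 1 SE) and day 8 minus day 7 as open points. Of the filled points 26 lie right of 0, up to 0.77 for Tm7sf2, and the 28 open points lie left of it. In the fit of 16 arrays no gene passed the threshold in either step.

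For the fractions taken apart the tests called nothing. In GFP-positive cells limma called 0 genes, with 631 at an unadjusted p under 0.05, and in GFP-negative cells 0, with 870. The difference between the fractions was called for 0 genes, with 190 at an unadjusted p under 0.05, so no gene can be named as moving in one fraction alone. Pim2, a serine/threonine kinase, differed by 0.14 ± 0.37 in GFP-positive and -2.30 ± 0.37 in GFP-negative cells. Dnmt3b, a DNA methyltransferase of the epiblast, differed by -0.18 ± 0.21 and -1.23 ± 0.21 in GFP-positive and GFP-negative cells. Pim2 had 71.4 and 47.6 in GFP-positive cells on day 6 (batches 1 and 2), against 47.8 and 57.1 on day 5, and in GFP-negative cells 71.5 and 93.2 on day 6, against 243 and 754 on day 5.

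**Figure D5:**
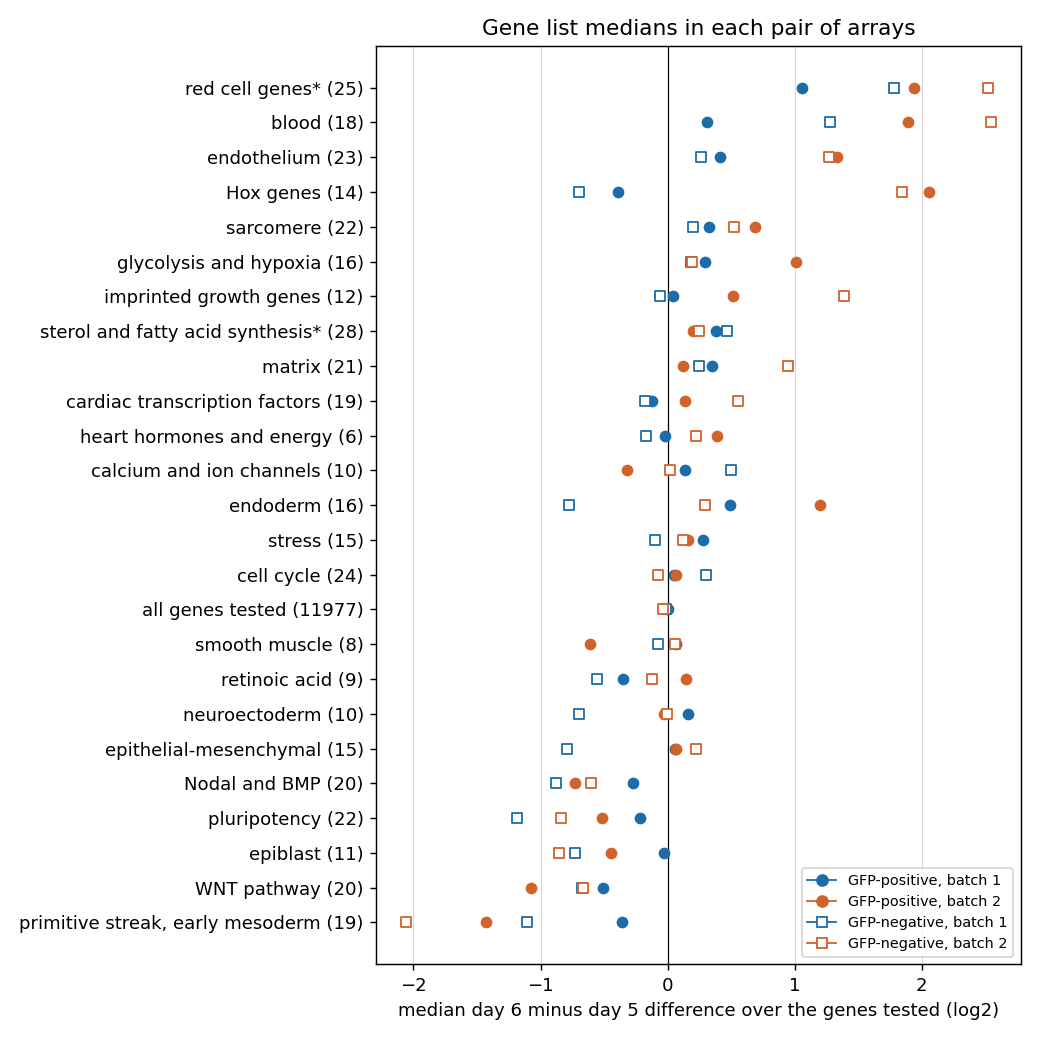
Median day 6 minus day 5 difference (log2) of each gene list in each of the 4 pairs, with the number of genes tested in parentheses and 2 lists chosen after values were seen marked by an asterisk. Batch 1 is blue and batch 2 orange, and filled circles are GFP-positive and open squares GFP-negative cells. Red cell, blood, endothelial, sarcomere, matrix, glycolysis and hypoxia, and sterol lists are above 0 in all 4 pairs. WNT, pluripotency, epiblast, primitive streak, and Nodal and BMP lists are below 0 in all 4 pairs. The Hox list is above 0 in batch 2 and below 0 in batch 1.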

How the data were processed

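The authors deposited linear intensity signals of Affymetrix mouse arrays, made with GCOS 1.4 and MAS5 per the submitters' processing notes, from RNA amplified in 2 rounds with an oligo dT primer per the labels. The number of arrays limits the precision. Of 45101 probe sets, 64 controls, 9160 without a symbol and 932 with several were set aside. Looking up 34741 symbols by Entrez number changed 0 of them. The probe set with the highest mean over all 18 arrays stood for each of 18193 genes. Probe sets with _x_at in their name were used only where a gene had no other. Of 426 list memberships, 19 had no probe set, T among them.

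Log2(signal + 6.8) was fitted with limma 3.58.1 in R 4.3.3 on 16 sorted arrays (day and fraction means, batch within fraction, variance trend, 6 residual degrees of freedom). P-values were adjusted by Benjamini-Hochberg over 11977 genes. The offset is the 25th percentile of all signals, the filter their median. A fold on this scale understates the change of dim genes. The titles give the fraction and batch, and these made the pair. Deviations of same-batch arrays (batch 1 minus batch 2) correlated at 0.25 to 0.70 in 6 pairs of groups. These include pairs across the fractions, so the values do not test pairing by fraction. Within-batch fits used all sorted arrays of a batch, the later days included, and had 3 residual degrees of freedom. Data were simulated with 100 genes changed per size, the same step in every batch and fraction, and independent noise on each array. In the real data the step differed between batches, so these shares do not tell which changes the fits missed. The pooled fit called 49% at a log2 change of 1 and 94% at 2. The batch 1 fit called 38% and 72%, and the batch 2 fit 7% and 58%.

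The step and the gene lists were chosen with earlier results of these data known. Named genes are the 12 with the lowest p in each direction with 1 sign in 4 of 4 pairs, 5 in each other comparison, 2 per list (up to 4 if called), and Nkx2-5, Myh6 and Pou5f1. Others, the within-batch results and the red cell and sterol lists were chosen after their values were seen. Figures used matplotlib 3.10.9 in Python 3.11.15.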

Additional observations from a re-analysis of the deposited data

Results flagged for a closer look

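For 4 genes named by rule the step differed between batches by a test of the difference itself (limma, day within batch). Over all genes 78 (0.651%) passed that test. The 4 were named for a low p within their lists on the same arrays, so their count describes these genes only. Batch 1 minus batch 2 was -4.00 for Tnni1 (adjusted p = 0.00914), -2.51 for Tek (adjusted p = 0.0175), -2.83 for Hoxb4 (adjusted p = 0.00981) and -1.81 for Acta2 (adjusted p = 0.023). All 4 rose within batch 2. One day 5 signal of Tnni1 in batch 2 was below the offset of 6.8 (3.6), so its size is set in part by the offset. Acta2 rose within batch 1 too, while the genes Tnni1, Tek and Hoxb4 differed there by 0.04, 0.45 and -0.24.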

How the results depend on the processing

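The calls depend on which arrays are used. For the step over both fractions the fit called 0 genes, 59 in batch 1 alone, 136 in batch 2 alone, 63 (50 higher, 13 lower) in an additive fit of the 8 arrays with the pair as replicate block, added after the data were seen, and 0 to 158 with single arrays left out (158 without the batch 1 GFP-positive day 5 array). The fit with no replicate block on 18 arrays, batch as 1 block, and the 8 arrays alone each called 0. The additive fit counts the pairs as separate replicates, although the fractions of a batch moved together. In GFP-positive cells leaving out an array gave 0 to 31, and the step minus the later step gave 6 in batch 1 and 7 in batch 2.

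The 59 calls of batch 1 became 37 with equal array medians, 0 without a variance trend, 401 with its 4 arrays of days 5 and 6 alone, and 0 to 466 with single arrays left out. It became 466 and 28 without its GFP-positive and GFP-negative day 5 array, and 1 and 0 without its GFP-positive and GFP-negative day 6 array. The 136 of batch 2 became 217 with equal medians, 89 with the mean of all probe sets, 60 without a trend, 256 with array weights, 765 with 4 arrays alone, and 2 to 25 with any 1 of its 4 arrays left out. The 78 batch differences became 120 with weights, 292 with 8 arrays alone, and 9 to 72 with arrays left out. The cause was not tested.

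The 67 named genes were mostly picked for a low p in these same arrays. Without the GFP-positive day 5 array of batch 1, which leaves 1 array in its group, Pou5f1 differed by -3.24 and Col1a2 by 3.13. Signs turned in batch 1 alone for Myl7 (0.10), Csrp2 (-0.56), Nefl (0.067), Hoxa9 (-0.21) and Hoxb4 (-0.24). Nkx2-5, whose difference is near 0, turned to -0.0012 with quantile normalization, -0.0036 with equal medians and -0.11 in batch 2 alone, and lay between -0.21 and 0.24 with single arrays left out. Myh6 lay between -0.22 and 1.21, below 0 without the batch 1 GFP-positive day 6 array (-0.16) or the batch 2 GFP-positive day 5 array (-0.22). Detection calls were not used here, so signals of a few units have no measured order.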

Other observations

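Of 16 tested endoderm genes, 1 rose within batch 2 and the step of 2 differed between batches, against 0.918% and 0.651% of all genes. Ttr, transthyretin of visceral endoderm, had 1379 and 1199.7 in GFP-positive and GFP-negative cells of batch 2 on day 6, against 16.1 and 18.7 on day 5, and rose there by 5.74 ± 0.64 (limma adjusted p = 0.0193). In batch 1 it had 3016 and 837 on day 6, against 2423 and 1618 on day 5. Afp had 169 and 296 on day 6 in batch 2, against 0.7 and 0.4 on day 5, and 559 and 255 on day 6 in batch 1, against 977 and 1194 on day 5. The steps of both genes differed between batches (batch 1 minus batch 2 for Ttr, -6.06 ± 0.90, adjusted p = 0.021, and adjusted p = 0.0366 for Afp, whose size is set in part by the offset of 6.8). Cxcr4, a chemokine receptor of definitive endoderm and mesoderm, was lower in 4 of 4 pairs (-1.93 ± 0.57), and its difference did not pass.

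Imprinted growth genes had a median difference of -0.01 in batch 1 and 0.83 in batch 2 over 12 tested genes. The medians over all genes were -0.01 and -0.02. The test of the difference between batches passed for 0 of the 12, which cannot be told from the 0.651% of all genes. Of the 12, 2 rose within batch 2, against 0.918% of all genes. Igf2 had 7535 and 7828 there on day 6, against 3893 and 1435 on day 5, and 6226 and 6089 on day 6 in batch 1, against 5960.4 and 5768 on day 5, and its difference did not pass in either batch. Dlk1 and Grb10 rose within batch 2 by 2.39 ± 0.29 and 2.20 ± 0.30. Of 9 tested retinoic acid genes, Cyp26a1, which degrades retinoic acid, and Crabp1, which binds it, were lower in 4 of 4 pairs (-1.97 ± 0.53 and -1.10 ± 0.29), against 14.0% of all genes, and neither passed.

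Cell cycle genes had a median difference of 0.08 over 24 tested genes between days 6 and 5, and -0.37 between days 8 and 7. Mki67 had 2925 to 3570 on day 6 and 1721 to 2758 on day 5, without overlap (0.54 ± 0.16, not passed). Samhd1, a dNTP hydrolase, had 1768 and 1373 in GFP-positive cells on day 6 (batches 1 and 2), against 630 and 57.3 on day 5. In GFP-negative cells it had 79.7 and 127 on day 6, against 2322 and 1589 on day 5. The difference between the fractions was 7.12 ± 1.69 and did not pass (adjusted p = 0.9998).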
